A study of Mus musculus with 20 samples.

Results

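Liver and kidney were compared in mice that received vehicle alone, gene by gene, across the transcriptome. The members were chosen by label and by a count filter: the 4 vehicle liver libraries and the 4 vehicle kidney libraries, which are 8 of the 20 libraries of the series, and every gene that reached 10 counts in 4 or more of them, which were 17245 of the 57010 genes in the count table. All 8 libraries came from 12-month-old male UM-HET3 mice, a genetically heterogeneous stock in which sibling mice differ in genotype, and each mouse carried a subcutaneous osmotic minipump that released a mixture of DMSO and PEG300 for 28 days. Tissue was flash-frozen and polyadenylated RNA from a piece of it was sequenced in bulk, so the values are averages over the cells of that piece. The methods do not name the region of the organ that was sampled. Each group holds males of 1 age only, and fewer cells of a type cannot be told apart from less RNA per cell. The remaining 12 libraries, 6 livers and 6 kidneys of mice whose pumps delivered the 7c compound mixture, share no sample with these 8 and enter only the fit of all 20 libraries and the same contrast in 7c mice, both given beside some results. Liver and kidney libraries carry matching replicate numbers, but the labels do not say that a number marks 1 mouse.

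Hepatocytes make up most of the liver's mass. They secrete most plasma proteins, detoxify ammonia through the urea cycle, make bile acids, store and release glucose and synthesize lipids. The kidney is built of nephrons, in which podocytes wrap the filtering capillaries, the proximal tubule takes back most of the filtered sugar, phosphate, amino acids and small proteins, the thick ascending limb and distal convoluted tubule reabsorb salt, and the collecting duct sets the final water and acid content of the urine. Both organs run fatty acid oxidation and gluconeogenesis, and several metabolic steps use one gene product in liver and another in kidney.

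Library totals ran from 31670440 to 34153084 counts in liver and from 27855849 to 39651123 in kidney, and 15060 to 15502 genes reached 10 counts in a liver against 17082 to 17927 in a kidney. The tissue labels were checked against defining markers. The 8 hepatocyte markers (Alb, Apoa1, Ttr, Cps1, Cyp2e1, Serpina1a, Fgb and Hpx) summed to between 102739 and 125470 CPM (counts scaled to a common library size, with sizes adjusted by the TMM method) in the livers and between 1989 and 2390 CPM in the kidneys, where most of the sum was Cyp2e1. The 8 tubule markers (Slc34a1, Slc12a1, Slc12a3, Aqp2, Umod, Lrp2, Kap and Cdh16) summed to 0.992 to 2.17 CPM in the livers and 30254 to 52962 CPM in the kidneys, and 5 of them were at 0 in all livers. On the first principal component of log2 CPM, which held 56.3% of the variance, the livers lay between -96.3 and -88.0 and the kidneys between 82.2 and 107. Kidney replicate 2 stood apart from the other kidneys on the second component, which held 14.6% of the variance, at -106 against 22.1 to 55.2, and its summed values are given below beside several gene groups.

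At an adjusted p under 0.05 (edgeR quasi-likelihood test), 4439 genes, 25.7% of those tested, were higher in liver and 4776, 27.7%, were higher in kidney, 53.4% in either direction. A stricter test asked whether the difference exceeded 2-fold. By that test 2077 genes, 12.0% of those tested, were higher in liver and 2858, 16.6%, were higher in kidney (28.6% in either direction), and the text below writes "over 2-fold" only of these. Of the calls at 0.05, 48.2% were higher in liver with TMM scaling, against 22.7% (2399 liver and 8160 kidney genes) when libraries were scaled by total count alone. Total count scaling moved the median log2 difference of all genes by -0.60 and upper-quartile scaling moved it by -0.13, so the signs of small differences depend on the scaling, and where they flip is said beside the gene. The median log2 difference (liver minus kidney) over all tested genes was -0.06. In 4323 genes every liver lay above every kidney, in 4849 every kidney lay above every liver, and in 8073 the groups overlapped.

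**Figure D1:**
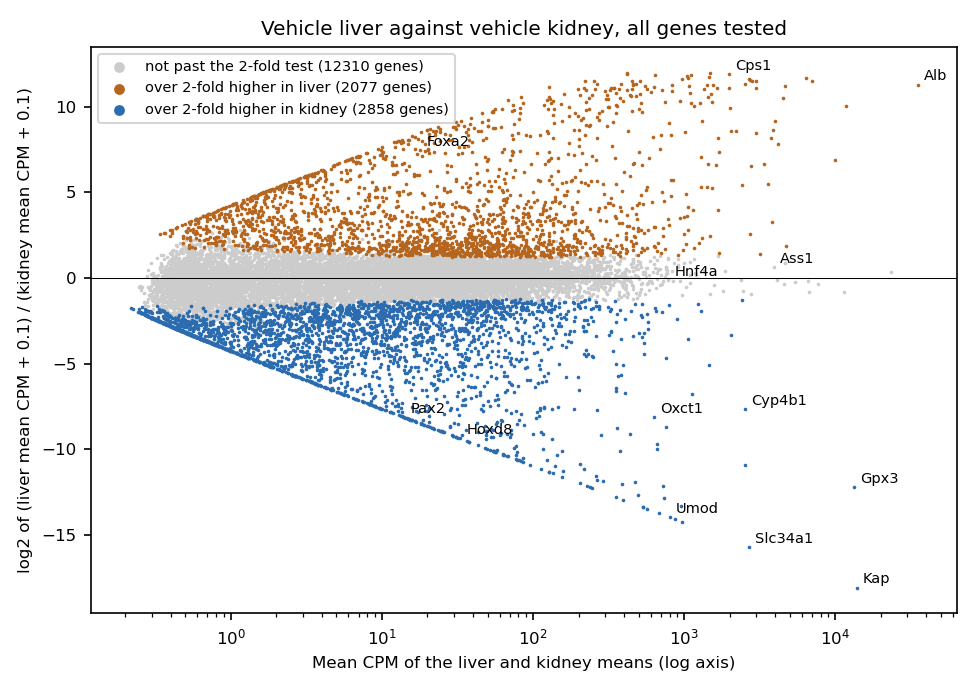
Each point is 1 of the tested genes: the horizontal axis (log) is the average of its mean CPM in liver and its mean CPM in kidney, and the vertical axis is the log2 ratio of liver to kidney means after adding 0.1 CPM to both. Brown points are the 2077 genes over 2-fold higher in liver, blue points the 2858 over 2-fold higher in kidney and grey points the rest; the straight lower edge of blue points is made of genes with no count in any liver.

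The 2 organs differed in how much of the library single genes took up. In liver the most counted 100 genes held 41.2% ± 1.35 of all counts (SD, n = 4) and in kidney 32.1% ± 1.14. From 175 to 217 genes were enough for 50% of the counts of a liver, against 408 to 523 for a kidney, with no overlap. The 10 most counted genes held similar shares in both, 16.5% ± 0.92 in liver and 16.0% ± 0.95 in kidney, and their ranges overlapped. Genes called at 0.05 with at least a 256-fold fitted difference numbered 391 in liver and 517 in kidney, and those under 2-fold numbered 1622 and 1018. Fitted folds of genes at 0 in 1 tissue were not bounded here, so the counts at 256-fold can include folds that depth does not settle. At 1 CPM or more, 120 liver genes were at 0 in all kidneys and 378 kidney genes at 0 in all livers.

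**Figure D2:**
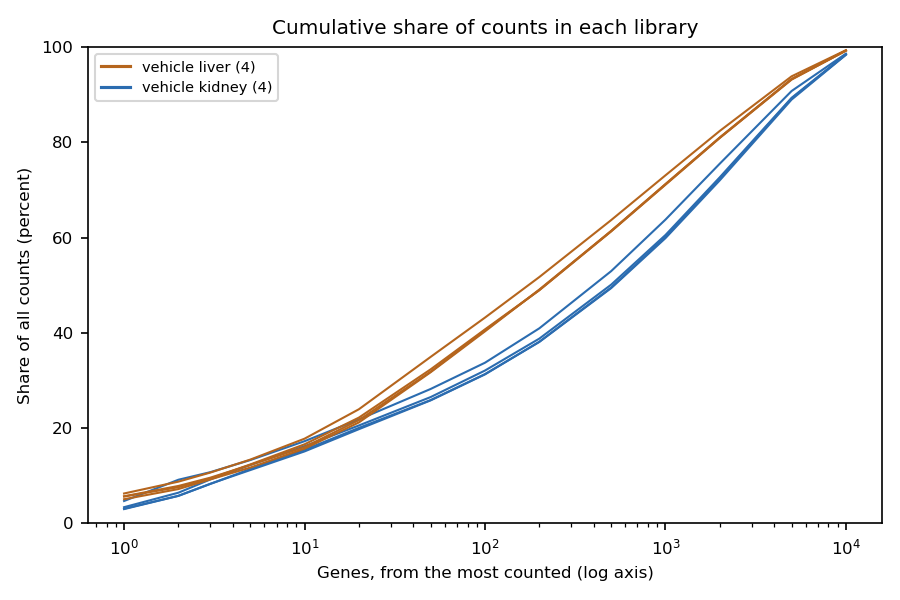
Each line is 1 library: the horizontal axis (log) counts genes from the most counted one on, and the vertical axis gives the share of the library's counts they hold. The 4 liver lines (brown) lie above the 4 kidney lines (blue) from about 50 genes on, and a liver reaches 50% with 175 to 217 genes.

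Absence was asymmetric. Of the 1713 genes with at least 100 CPM in liver, 1 was at 0 in all 4 kidneys (Serpina12, which encodes the adipokine vaspin), while of the 1430 genes with at least 100 CPM in kidney, 38 were at 0 in all 4 livers. Among 328 protein-coding genes with at least 500 CPM in liver, 78 had a kidney level under 10 per 10000 of their liver level and none of these 78 was at 0 in all kidneys. Their median was 3.79 per 10000 for the kidney means, and 5.09, 4.18, 2.74 and 2.86 in the 4 kidney libraries. Of 166 such genes of kidney, 24 were under 10 per 10000 in liver, 11 of these were at 0 in all livers, and their median was 0.508 per 10000. The low kidney levels of liver genes below (Alb at 18.4 to 35.4 CPM, for example) have values of this size, and whether they come from kidney cells was not tested.

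Levels of different genes were compared as TPM, a share of the library's transcripts, which divides by exon length. In liver the 10 protein-coding genes with the highest TPM were mt-Co1, Alb, mt-Nd1, mt-Cytb, Fabp1, Mup3, mt-Nd2, Apoa1, Apoe and Trf. In kidney they were Kap, mt-Co1, mt-Cytb, mt-Nd1, Gpx3, mt-Nd2, mt-Nd4, mt-Nd6, mt-Nd5 and Miox. Genes of mitochondrial DNA thus filled 4 of the 10 places in liver and 7 in kidney. Alb, which encodes serum albumin (GRCm39 chromosome 5, 90608647 to 90624696), had 40364 ± 2939 TPM in liver and 22.2 ± 5.50 TPM in kidney (SD, n = 4 each). Kap, the androgen-regulated kidney protein gene (chromosome 6, 133826814 to 133830725), had 95870 ± 23019 TPM in kidney and no count in any liver.

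Plasma protein genes were a liver group. All 31 tested genes of plasma carriers and other secreted proteins were over 2-fold higher in liver, with a median log2 difference of 9.77. Alb counted 82161, 63419, 67923 and 66659 CPM in the 4 livers and 35.4, 31.2, 26.3 and 18.4 CPM in the 4 kidneys. Every liver thus lay far above every kidney, a log2 difference of 11.30 ± 0.35 (SE, adjusted p = 1.52e-09). Ttr, the carrier of thyroxine and of retinol-binding protein, differed less, with 6130 to 7613 CPM in liver and 135 to 199 CPM in kidney, a log2 difference of 5.46 ± 0.21. The list's summed level was 17.9% ± 0.91 of all counts in liver and 0.0781% ± 0.0156 in kidney (SD, n = 4).

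Clotting and complement genes followed the same direction. All 21 clotting and fibrinolysis genes were higher in liver, 20 of them over 2-fold, with a median log2 difference of 9.93. Fgb, the beta chain of fibrinogen, counted 5796, 5818, 4218 and 5609 CPM in liver and 1.64, 2.37, 1.42 and 0.902 CPM in kidney. F2, which encodes prothrombin, counted 2015 to 2282 CPM in liver and 0.43 to 1.79 CPM in kidney, a log2 difference of 10.90 ± 0.51. The smallest differences of this list were those of Proc (protein C, log2 difference 1.34), Serpinf2 (the plasmin inhibitor, 1.37) and F13b (a factor XIII subunit, 1.82), which were at 269, 510 and 80.2 CPM in kidney. Of 21 complement genes tested 20 were higher in liver, 18 of them over 2-fold, with a median of 5.52. C3, the component on which the activation routes converge, counted 6343 to 10976 CPM in liver and 23.9 to 54.7 CPM in kidney. Cfb, factor B of the alternative route, was the exception, at 6.04, 7.85, 3.46 and 3.31 CPM in liver and 16.7, 7.14, 14.6 and 17.7 CPM in kidney, a log2 difference of -1.44 ± 0.35 (adjusted p = 0.00509) that did not pass the 2-fold test, with kidney replicate 2 inside the liver range. Without that library, or with total count scaling, it passed the 2-fold test.

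The urea cycle divided into steps far higher in liver and steps at similar levels in kidney. All 8 genes were higher in liver and 6 were over 2-fold. Cps1, the mitochondrial entry step that fixes ammonia as carbamoyl phosphate, counted 4099, 3959, 4460 and 3337 CPM in liver and 1.22, 0.409, 1.03 and 1.01 CPM in kidney, and Otc, the next enzyme, counted 802 to 883 CPM in liver and 0.0683 to 0.169 CPM in kidney. For both genes every liver lay above every kidney. Ass1 and Asl, which together turn citrulline into arginine, stayed within about 2-fold. Ass1 counted 4729, 4762, 5393 and 4213 CPM in liver against 2281, 3864, 2921 and 3112 CPM in kidney, a log2 difference of 0.65 ± 0.19 (adjusted p = 0.0129) that was 0.06 and no longer called with total count scaling. Asl differed by 1.01 ± 0.26 on the log2 scale (adjusted p = 0.00628), also not called with total count scaling. In both genes the second kidney library was the highest kidney, and for Asl it reached 533 CPM against 574 in the lowest liver.

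Amino acid breakdown was mostly a liver program with exceptions. Of 27 genes 22 were higher in liver, 18 over 2-fold, 2 were higher in kidney and 3 were not called, with a median log2 difference of 2.45. Tat and Tdo2, the first enzymes of tyrosine and of tryptophan breakdown, differed by 11.90 ± 0.52 and 12.11 ± 0.35 on the log2 scale. Dao, the peroxisomal D-amino acid oxidase, ran the other way, with no count in any liver and 438, 588, 395 and 482 CPM in the kidneys, at least 4255-fold higher in kidney (the bound takes 3 counts per liver library in place of 0). Prodh, proline dehydrogenase, was also higher in kidney, by 0.58 ± 0.16 on the log2 scale. The summed level of the list was 6113 CPM in kidney replicate 2 and 4660 to 4900 CPM in the other kidneys.

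Glutamine and ammonia genes were split between the organs. Gls2, the liver-type glutaminase, counted 637, 789, 767 and 669 CPM in liver and 0.925, 0.341, 0.301 and 0.733 CPM in kidney. Every liver lay above every kidney, a log2 difference of 10.28 ± 0.38. Of the 9 genes listed for renal ammonia and glutamine, 5 were over 2-fold higher in kidney and 4 were higher in liver, 2 of them over 2-fold. The kidney genes included the ammonia channel gene Rhcg (no count in any liver, 60.0 to 85.9 CPM in kidney, at least 650-fold higher) and the amino acid transporter gene Slc7a7 (log2 difference -5.12 ± 0.25). Those over 2-fold higher in liver were Glud1, glutamate dehydrogenase (2.00 ± 0.13), and Slc38a3, a glutamine transporter gene, at 1693 to 2171 CPM in liver and 45.4 to 92.2 CPM in kidney (4.89 ± 0.25). The list summed to 6231 to 7034 CPM in liver and 2002 to 2533 CPM in kidney.

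Most bile acid genes were higher in liver. Of 18 tested genes 14 were higher in liver, 13 over 2-fold, and 4 were higher in kidney, with a median log2 difference of 4.37. Cyp7a1, the rate-limiting enzyme of bile acid synthesis, counted 121, 102, 132 and 95.5 CPM in liver and was at 0 in 3 kidneys and 0.0910 CPM in the second. Abcb11, the canalicular bile salt pump, counted 780 to 1108 CPM in liver and 0.137 to 0.507 CPM in kidney. Slc51a, a subunit of the exporter that returns bile acids to blood, counted 0.207, 0.0737, 0 and 0 CPM in liver and 86.0, 140, 89.2 and 108 CPM in kidney, a log2 difference of -10.58 ± 0.48, and its partner Slc51b differed by -4.80 ± 0.50. The other genes higher in kidney were Amacr, a racemase of bile acid synthesis (-0.66 ± 0.14), and Slc10a2, an uptake carrier (-0.81 ± 0.30), and neither passed the 2-fold test. The call of Slc10a2 was lost without liver replicate 3 or 4 or kidney replicate 1 or 3, and in the 7c mice the difference was -0.20 (adjusted p = 0.542). Hsd3b7 was at 0 in all 8 libraries and was not tested.

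Cytochrome P450 genes of drug and lipid metabolism differed between organs in both directions. Of 22 genes 15 were over 2-fold higher in liver, 3 over 2-fold higher in kidney and 1 more was higher in kidney (Por, the shared electron donor, log2 difference -1.08), while 3 were not called, and the median was 7.00. Cyp3a11 counted 3978 to 6971 CPM in liver and 1.30 to 2.37 CPM in kidney. Cyp2e1, which oxidizes ethanol and small solvents, counted 8313, 8920, 6411 and 5991 CPM in liver and 2185, 2075, 1812 and 2094 CPM in kidney, so that it was abundant in both organs, with a log2 difference of 1.86 ± 0.18. Cyp4b1 counted 18.9, 38.3, 22.9 and 20.2 CPM in liver and 5494, 5034, 4589 and 5060 CPM in kidney, a log2 difference of -7.65 ± 0.30. Cyp2j13 and Cyp24a1, the latter the enzyme that inactivates vitamin D, were the other kidney genes, with 518 ± 60.9 and 63.9 ± 34.2 CPM in kidney (SD, n = 4).

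Lipid synthesis genes were higher in liver with 1 exception. Of 23 genes of fatty acid and cholesterol synthesis 22 were higher in liver, 17 over 2-fold, with a median log2 difference of 2.60. Scd1, the desaturase that makes oleate, counted 7598, 4081, 7048 and 7809 CPM in liver and 57.2, 46.6, 84.7 and 72.0 CPM in kidney. Fasn, fatty acid synthase, counted 1144, 605, 730 and 581 CPM in liver and 99.3, 88.9, 93.3 and 98.6 CPM in kidney, a log2 difference of 3.01 ± 0.23. Both had no overlap between organs. Me1, malic enzyme, which supplies NADPH, was the 1 gene higher in kidney, by 0.55 ± 0.16 on the log2 scale (adjusted p = 0.0152), a call lost with all 20 libraries in the fit (adjusted p = 0.0649) and not made in the 7c mice (adjusted p = 0.0565).

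Fatty acid oxidation differed less. Of 19 genes 13 were higher in liver, 7 over 2-fold, 1 was higher in kidney and 5 were not called, with a median log2 difference of 0.94, and with total count scaling the count became 8 in liver and 6 in kidney. Without kidney replicate 2, 3 were higher in kidney. The widest were those of Acaa1b, a peroxisomal thiolase (2.46 ± 0.21), and Ppara, the fatty acid receptor (2.41). Cpt1a, the gate of mitochondrial fatty acid uptake, counted 437, 436, 316 and 353 CPM in liver and 338, 297, 381 and 397 CPM in kidney and was not called (log2 difference 0.13 ± 0.16, adjusted p = 0.53), and its sign flipped to -0.49 with total count scaling. Acadm, the medium-chain dehydrogenase, was higher in kidney by 0.34 ± 0.13 on the log2 scale (adjusted p = 0.0429), a call that did not pass 0.05 without any 1 of the livers, without kidney replicate 1, 3 or 4, with no count filter or in the 7c mice (-0.16, adjusted p = 0.248).

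Ketone bodies are made in liver and burned elsewhere. Oxct1, the enzyme that activates acetoacetate for use, counted 6.62, 5.78, 2.73 and 2.88 CPM in liver and 1497, 1105, 1250 and 1204 CPM in kidney. Every kidney lay above every liver, a log2 difference of -8.14 ± 0.37.

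**Figure D3:**
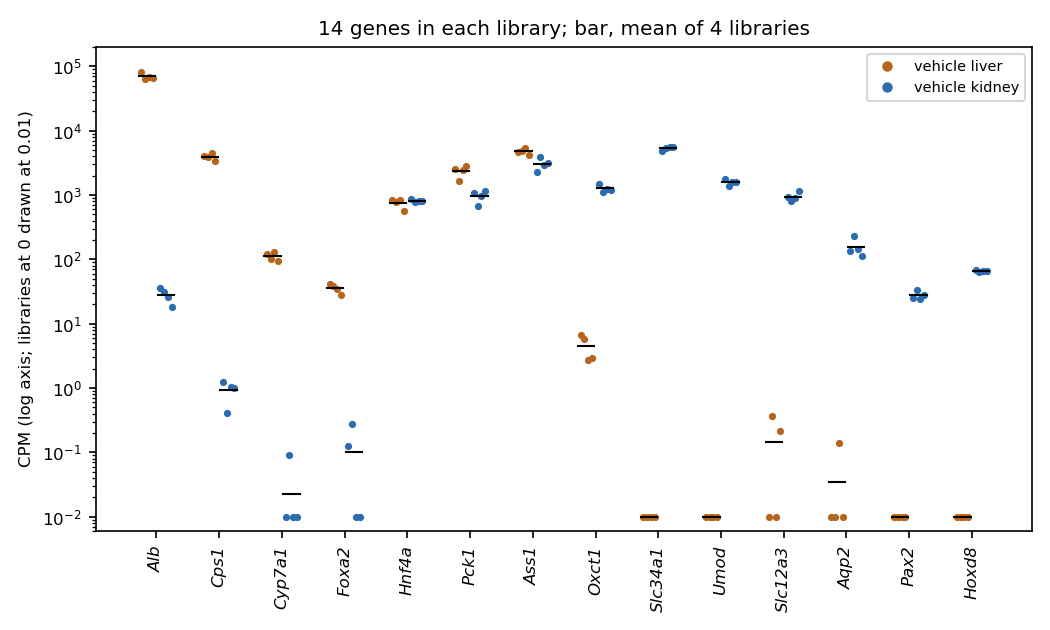
CPM on a log axis of 14 genes in each of the 4 vehicle livers (brown) and 4 vehicle kidneys (blue); black bars are the means of 4 libraries and libraries at 0 are drawn at 0.01. Hnf4a, Ass1 and Pck1 lie within a few-fold in both organs, while Slc34a1, Umod, Pax2 and Hoxd8 have no count in any liver.

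Genes of the nephron segments were almost all higher in kidney. All 26 proximal tubule genes were higher in kidney, 25 over 2-fold, and 15 had no count in any liver, so the median log2 difference of -14.87 from the fit is -10.95 when those genes are set to their bounds. Slc34a1, the sodium-phosphate cotransporter of the brush border (chromosome 13, 55546000 to 55563413), counted 4823, 5416, 5564 and 5624 CPM in kidney and 0 in every liver, at least 47878-fold higher in kidney. Kap counted 27182, 42365, 19074 and 21800 CPM in kidney, at least 246736-fold higher, with the second library the highest. Lrp2, which encodes the endocytic receptor megalin, counted 0.992, 0.811, 2.03 and 0.936 CPM in liver and 1464, 1115, 1461 and 1273 CPM in kidney, a log2 difference of -10.11 ± 0.35. Slc22a7, an organic anion transporter that liver also uses, was the 1 member not past the 2-fold test, at 45.5 to 74.5 CPM in liver and 92.8 to 207 CPM in kidney. The summed proximal tubule level was 65271 CPM in kidney replicate 2 and 38521 to 45976 CPM in the other kidneys.

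In the thick ascending limb list 12 of 13 genes were over 2-fold higher in kidney and 9 had no count in any liver. Umod, which encodes uromodulin (chromosome 7, 119061934 to 119078505), an abundant urinary protein, counted 1791, 1401, 1591 and 1608 CPM in kidney, at least 14281-fold above liver. Slc12a1, the sodium-potassium-chloride cotransporter that loop diuretics block, counted 379 to 595 CPM in kidney and 0 in every liver. Cldn14, a tight junction gene of that segment, went the other way, with 8.77 to 13.5 CPM in liver and 0.0841, 0, 0.215 and 0.0564 CPM in kidney, a log2 difference of 6.79 ± 0.58.

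Distal segments followed. Of 13 distal convoluted and connecting tubule genes 11 were higher in kidney, 10 over 2-fold. Slc12a3, the thiazide-sensitive cotransporter, counted 937, 797, 884 and 1153 CPM in kidney and 0, 0.368, 0 and 0.216 CPM in liver, a log2 difference of -12.60 ± 0.59. The 2 genes not called were Trpm7, a widely expressed magnesium channel (-0.36 ± 0.22), and Atp2b4, a calcium pump (-0.42), which both were called higher in kidney without kidney replicate 2 and with total count scaling, Atp2b4 also in the 7c mice. Of 17 tested collecting duct genes 16 were higher in kidney, 15 over 2-fold. Aqp2, the vasopressin-regulated water channel, counted 135, 232, 144 and 112 CPM in kidney, and in liver it was at 0 in 3 libraries and 0.140 CPM in the third. St6gal1, a sialyltransferase, was the 1 gene of this list higher in liver (log2 difference 4.24 ± 0.18), with 122 to 190 CPM there against 6.96 to 8.47 CPM in kidney.

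Of 13 podocyte genes 11 were higher in kidney, 10 over 2-fold, with a median log2 difference of -3.18. Podxl, the glycocalyx protein that vascular cells also make, counted 9.43 to 14.0 CPM in liver and 91.8 to 131 CPM in kidney. Plce1, a phospholipase C, was higher in liver, by 1.67 ± 0.33 on the log2 scale, and passed the 2-fold test, but not without kidney replicate 2, with upper-quartile or total count scaling, or by limma-voom or DESeq2.

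**Figure D4:**
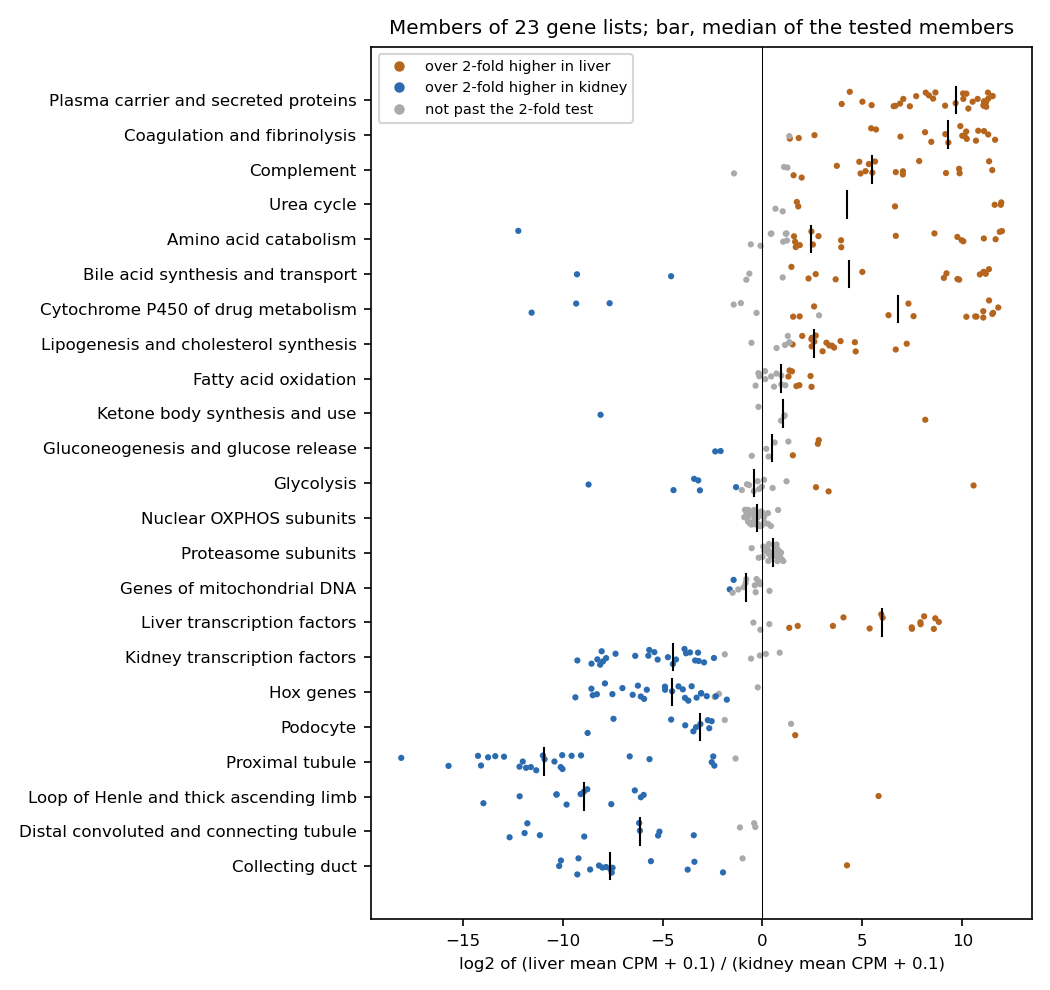
Each point is 1 tested member of 1 of 23 gene lists, placed by the log2 ratio of liver to kidney mean CPM after adding 0.1 CPM to both; brown and blue points passed the 2-fold test in liver or kidney, grey points did not, black bars are list medians on this scale and vertical scatter within a row carries no value. Secreted protein and clotting genes lie to the right, nephron segment and Hox genes to the left, and mitochondrial and proteasome subunits close to 0.

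Transcription factors named for liver were mostly higher in liver, by differing amounts. Of 18 genes 15 were over 2-fold higher in liver and 3 were not called, among them Hnf4a and Nr1h4, the latter the bile acid receptor, which was called higher in liver in the 7c mice. Hnf4a, a nuclear receptor of hepatocytes and proximal tubule, counted 847, 784, 831 and 563 CPM in liver and 863, 780, 804 and 809 CPM in kidney, with overlapping groups and a log2 difference of -0.11 ± 0.16 (adjusted p = 0.598), which was -0.72 and called higher in kidney with total count scaling. Foxa2, a pioneer factor of endoderm, counted 41.3, 38.5, 34.1 and 28.3 CPM in liver and 0.126, 0.273, 0 and 0 CPM in kidney, a log2 difference of 8.38 ± 0.58. Gata4 counted 22.8 to 24.6 CPM in liver and 0 in every kidney, at least 342-fold higher in liver. Nr1h3, the oxysterol receptor LXR alpha, was expressed in both, at 120 to 142 CPM in liver and 35.8 to 61.3 CPM in kidney (log2 difference 1.34 ± 0.17). The list's median was 7.20, or 6.26 with its 2 genes at 0 in kidney set to their bounds.

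Of 29 tested kidney transcription factors 25 were higher in kidney, 24 over 2-fold, and 10 had no count in any liver. Pax2, which directs nephron formation in the embryo, counted 24.6, 33.8, 24.3 and 28.2 CPM in kidney and 0 in every liver, at least 248-fold higher in kidney, and its relative Pax8 differed by -8.71 ± 0.31 on the log2 scale. Nr3c2, the mineralocorticoid receptor, was higher in liver, by 0.87 ± 0.20 on the log2 scale (adjusted p = 0.00299), and was not called with total count scaling.

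Hox genes, which hold positional identity along the body axis, were a kidney group. Of 39 genes listed 29 were tested, 28 were higher in kidney, 26 over 2-fold, and none was higher in liver. Hoxd8 (chromosome 2, 74534959 to 74538297) counted 67.9, 62.9, 65.7 and 66.2 CPM in kidney and 0 in every liver, at least 587-fold higher in kidney. Hoxa9 and Hoxa10 were also at 0 in every liver, with 35.9 and 37.6 CPM in kidney. The 12 tested genes at 0 in liver were set to their bounds for a list median of -4.66, against -6.85 from the fit. The summed level over all 39 was 5.70 to 6.73 CPM in liver and 364 to 385 CPM in kidney.

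Promoters were read from the GRCm39 genome, 250 bases upstream of the Ensembl canonical start, and searched on both strands for AAAGTCC, part of a site of HNF4, and for TATAAA, the TATA box. Among the 14176 tested protein-coding genes 3.96% held the first and 7.74% the second. Among the 1698 that were over 2-fold higher in liver the shares were 5.54% and 9.84%, among the 2463 over 2-fold higher in kidney 3.82% and 8.20%, and among the 6063 not called at 0.05 3.88% and 7.62%. Shown are those of the 10 genes with the largest differences on each side whose window held a motif, 1 on each side, with matches in capitals. Crp, the acute-phase C-reactive protein (chr1:172525364-172525613, plus strand), had 443 ± 89.0 CPM in liver (SD, n = 4) and holds a TATA box. Slc34a1 (chr13:55547256-55547505, plus strand) holds both motifs. A match describes these letters only.
Crp: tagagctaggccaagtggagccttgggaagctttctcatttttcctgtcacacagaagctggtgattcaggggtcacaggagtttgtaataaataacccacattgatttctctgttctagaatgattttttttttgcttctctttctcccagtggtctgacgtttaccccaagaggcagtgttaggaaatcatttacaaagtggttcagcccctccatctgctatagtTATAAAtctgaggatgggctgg
Slc34a1: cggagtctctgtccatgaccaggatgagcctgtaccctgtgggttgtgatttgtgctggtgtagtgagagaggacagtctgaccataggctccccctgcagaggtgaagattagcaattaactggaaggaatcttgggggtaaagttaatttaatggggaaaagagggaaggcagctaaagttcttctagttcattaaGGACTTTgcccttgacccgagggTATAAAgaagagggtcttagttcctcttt

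Glucose metabolism showed shared enzymes at some steps and organ-specific ones at others. Of 10 genes of gluconeogenesis and glucose release 4 were higher in liver, 3 higher in kidney and 3 not called. Over all tested genes 25.7% were higher in liver and 27.7% in kidney. Pck1, the cytosolic entry enzyme, counted 2527, 1656, 2480 and 2803 CPM in liver and 1057, 682, 958 and 1158 CPM in kidney, a log2 difference of 1.30 ± 0.22 (adjusted p = 0.00042) that did not pass the 2-fold test. Fbp1 differed by 0.30 ± 0.14 (adjusted p = 0.094) and was called by limma-voom. G6pc1, which releases free glucose, varied widely among livers, at 381, 216, 939 and 1203 CPM, and overlapped the kidneys at 351, 429, 583 and 430 CPM (0.61 ± 0.44, adjusted p = 0.27; 0.90 and called without liver replicate 2, 0.49 and called in the 7c mice).

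Of 19 glycolysis genes 4 were higher in liver, 10 higher in kidney and 5 not called, with a median log2 difference of -0.44. With total count scaling 3 were higher in liver and 14 higher in kidney, and the median was -1.03. Hk1, the high-affinity hexokinase, counted 2.81, 5.23, 3.15 and 3.60 CPM in liver and 82.0, 89.9, 80.6 and 79.7 CPM in kidney. Ldhb, the lactate dehydrogenase subunit of oxidative tissues, counted 3.14, 3.24, 3.29 and 4.39 CPM in liver and 1257, 2313, 1180 and 1278 CPM in kidney, a log2 difference of -8.74 ± 0.32. The summed glycolysis level was 18801 CPM in kidney replicate 2, 12011 to 12934 CPM in the other kidneys and 9232 to 10023 CPM in liver.

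Per exon base, the balance within pairs of related genes could be given as a share. Pklr, the liver pyruvate kinase, made up 97.1% ± 1.17 of Pklr plus Pkm in liver and 29.5% ± 6.82 in kidney (SD, n = 4 each, here and for the other pairs). Ldha was 99.5% ± 0.0907 of Ldha plus Ldhb in liver and 27.0% ± 5.73 in kidney. These pairs turned over between organs, as did Mat1a, the methionine adenosyltransferase of hepatocytes, of Mat1a plus Mat2a (97.5% and 0.260%). Slc10a1, the bile acid uptake carrier of hepatocytes, made up 96.8% ± 1.06 of its pair with Slc10a2, the carrier of ileum and tubule, in liver and 1.72% ± 0.207 in kidney. In other pairs the same member led in both organs: G6pc1 was 99.2% ± 0.619 and 93.8% ± 2.27 of G6pc1 plus G6pc3 and Hnf4a over 99% of Hnf4a plus Hnf4g in both. Hsd11b1, which activates glucocorticoids, was all of its pair with Hsd11b2, which inactivates them, in every liver, and 22.0% ± 6.43 of it in kidney. Among the 11 pairs the liver and kidney ranges did not overlap in any. The pairs were chosen with earlier results of these data known, and 53.2% of all tested genes had no overlap either.

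**Figure D5:**
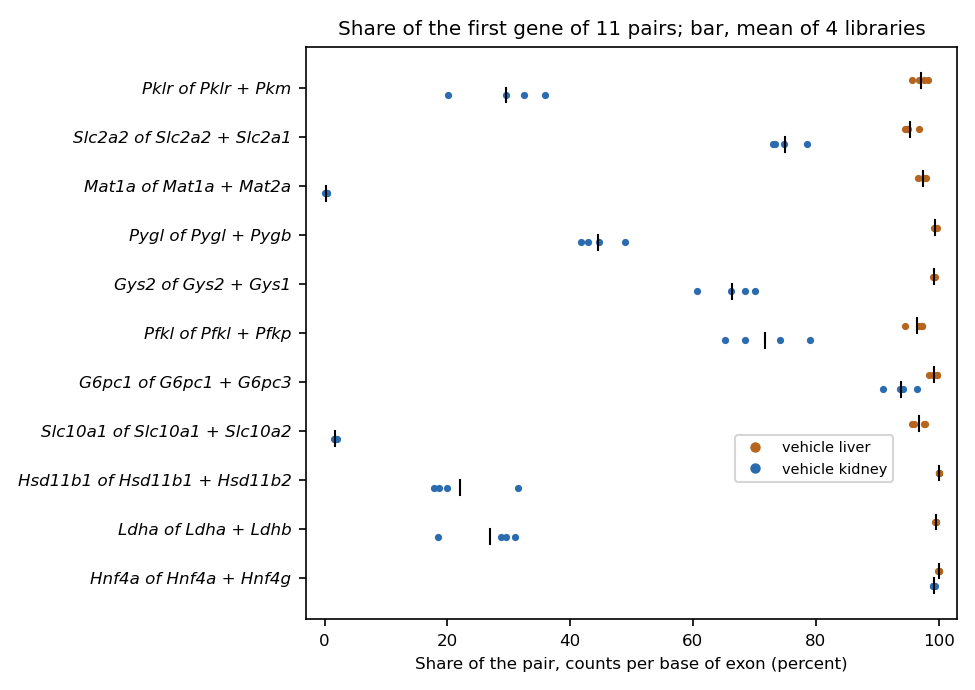
Share of the first-named gene in the counts per exon base of each of 11 gene pairs (percent), for each vehicle liver (brown) and vehicle kidney (blue), with the mean of 4 libraries as a black bar. The livers lie at 94.5% or more in all 11 pairs, and the kidneys run from near 0 for Mat1a to over 99% for Hnf4a.

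Hormone and metabolite pathways that pass between organs were split by step. Of 20 tested genes 10 were higher in liver, 8 over 2-fold, 9 were over 2-fold higher in kidney and 1 was not called. In the renin-angiotensin system, Agt, the substrate angiotensinogen, counted 619, 624, 599 and 556 CPM in liver and 18.8, 43.5, 37.0 and 16.5 CPM in kidney. Ren1, the renin enzyme of juxtaglomerular cells, counted 81.6, 93.0, 76.5 and 92.7 CPM in kidney and was at 0 in 3 livers and 0.280 CPM in the third. Ace, the converting enzyme, counted 306, 211, 250 and 287 CPM in kidney and 0.786, 0.700, 2.52 and 0.792 CPM in liver, so the substrate lay on the liver side and both enzymes on the kidney side, with no overlap.

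In vitamin D metabolism Cyp2r1, a 25-hydroxylase, counted 20.1, 20.2, 25.7 and 13.7 CPM in liver and 0.505, 0.637, 0.688 and 0 CPM in kidney. Cyp27b1, the activating 1-alpha hydroxylase, counted 0.0827, 0.0737, 0 and 0 CPM in liver and 3.30, 6.12, 4.02 and 5.95 CPM in kidney. Vdr, the receptor, was at 0 in 3 livers and 0.504 CPM in the fourth, and counted 238, 312, 293 and 316 CPM in kidney. The log2 differences were 5.40 ± 0.59 for Cyp2r1, -6.89 ± 0.67 for Cyp27b1 and -11.09 ± 0.68 for Vdr. Creatine synthesis was split the other way round: Gatm, its first step, counted 17.0 to 27.4 CPM in liver and 521 to 1007 CPM in kidney, and Gamt, its second, 168 to 208 CPM in liver and 11.1 to 33.9 CPM in kidney. Uox, the urate oxidase that people lack, counted 2303 to 3381 CPM in liver and 0.473 to 1.18 CPM in kidney, and Bbox1, the last step of carnitine synthesis, was higher in liver by 8.60 ± 0.24 on the log2 scale.

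Few genes of core cell machinery passed the 2-fold test. Of 39 nuclear genes of oxidative phosphorylation 10 were higher in kidney, 2 higher in liver (Sdhd and Uqcrq) and 27 not called. Over all tested genes 27.7% were higher in kidney and 25.7% in liver. None of the 39 was over 2-fold, and their median log2 difference was -0.29. Atp5f1b, the catalytic subunit of ATP synthase, counted 1775 to 1870 CPM in liver and 2956, 3606, 2723 and 2898 CPM in kidney (-0.75 ± 0.15, adjusted p = 0.00134). The summed level of this list was 20102 CPM in kidney replicate 2 against 12945 to 13825 CPM in the other kidneys, and without that library the list's median was -0.12, with 12 genes higher in kidney and 3 in liver. With total count scaling 35 were higher in kidney and none in liver. Uqcrq lost its call with RLE, upper-quartile or total count scaling, without any 1 of the livers or without kidney replicate 1, 3 or 4. Sdhd lost its call with no count filter and changed sign to -0.18 with total count scaling.

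Genes of mitochondrial DNA took 4.61% ± 0.873 of all counts in liver and 8.13% ± 1.10 in kidney (SD, n = 4). On the TMM scale their sums overlapped, at 41643 to 74027 CPM in liver and 60013 to 71094 CPM in kidney. Of 13 genes 7 were higher in kidney, 2 of them over 2-fold (mt-Co2 and mt-Co3), and 6 were not called, with a median log2 difference of -0.81. With total count scaling 10 were higher in kidney, 7 over 2-fold, and the median was -1.42. Of those not called, mt-Nd1 (-0.34), was called higher in kidney with upper-quartile scaling, by DESeq2 and limma-voom and without kidney replicate 2. mt-Co1 counted 32584, 26662, 25911 and 19614 CPM in liver and 24284, 14281, 23730 and 19884 CPM in kidney (0.35 ± 0.23, adjusted p = 0.231), with overlap, and was called higher in liver in the 7c mice (0.65). mt-Cytb counted 11954, 7042, 8479 and 5036 CPM in liver and 15658, 13564, 15150 and 13971 CPM in kidney, a log2 difference of -0.84 ± 0.25 (adjusted p = 0.0142). Levels of mt-Co2 and mt-Co3, at 41.2 and 40.6 CPM in liver, and of mt-Atp6, at 14.8 to 43.3 CPM, lay far under that of mt-Co1. How reads with several matching positions were counted is not stated, so the levels of mitochondrial genes, their count of calls, their shares of the library and their places among the highest TPM are uncertain.

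Proteasome subunits leaned to liver: 19 of 31 were higher there, against 25.7% of all genes, and 1 (Psmd3) was higher in kidney. None was over 2-fold, and the median log2 difference was 0.52. Under total count scaling that median became -0.09, with 3 genes higher in liver and 5 in kidney. Psmb7, a catalytic subunit, had the largest difference of the list, 1.04 ± 0.11. Psmd3 lost its call without any 1 of the livers. Among 17 genes used as references in expression assays, 4 were higher in liver, 4 higher in kidney and 9 not called, against 25.7% and 27.7% of all genes. The split was 2 and 11 with total count scaling and 6 and 5 without kidney replicate 2, where the list summed to 11804 CPM against 8048 to 8375 CPM in the other kidneys. Actb counted 653, 376, 531 and 472 CPM in liver and 551, 543, 469 and 377 CPM in kidney (0.07 ± 0.19, adjusted p = 0.796, with the sign reversed at -0.54 under total count scaling). B2m, the light chain of class I molecules, was over 2-fold higher in liver (3.59 ± 0.20) and Ywhaz over 2-fold higher in kidney (-1.28 ± 0.13). Gapdh was higher in kidney by 0.78 ± 0.26 on the log2 scale (adjusted p = 0.0253), and lost its call without liver replicate 1, 2 or 3.

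The genes over 10 CPM in both organs with the most precise difference near 0 were Slc25a17, Ppp2ca, Las1l, Uqcc1 and Ufm1. Ppp2ca, a phosphatase catalytic subunit, counted 170, 156, 164 and 153 CPM in liver and 165, 162, 166 and 161 CPM in kidney, a log2 difference of -0.02 ± 0.11. Las1l, a factor of ribosome assembly, counted 46.2 to 47.9 CPM in liver and 45.0 to 50.0 CPM in kidney. Under total count scaling all 5 were called higher in kidney, at -0.58 for Las1l and -0.51 for Ufm1.

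Cells other than hepatocytes and tubule cells also left organ-specific genes. Of 7 tested Kupffer cell genes 6 were over 2-fold higher in liver, among them Clec4f, the lectin of these resident macrophages, at 56.6, 145, 122 and 108 CPM in liver and 0.0841, 0.0455, 0 and 0 CPM in kidney. Of 9 genes of liver sinusoidal endothelium 8 were over 2-fold higher in liver, with Clec4g at 55.0 to 66.9 CPM against 0 to 0.108 CPM. Of 8 genes shared by all endothelium, 2 were higher in liver, 2 higher in kidney and 4 not called. These shares are near the 25.7% and 27.7% of all genes. None of the 8 was over 2-fold, with Pecam1 at 30.4 CPM in liver and 37.5 CPM in kidney. With total count scaling none was higher in liver and 6 were higher in kidney, 1 over 2-fold, and 4 were higher in kidney with upper-quartile scaling, without kidney replicate 2 or in the 7c mice. Of 9 kidney endothelium genes 7 were higher in kidney, 5 over 2-fold, and 2 higher in liver (Ehd3 and Tbx3). Of 8 cholangiocyte genes 6 were over 2-fold higher in kidney, whose epithelia express them too, and Sox9 was over 2-fold higher in liver (4.12 ± 0.31). Genes of 12 stellate and mesangial cell markers divided into 7 higher in liver, such as the retinol esterase gene Lrat (4.00 ± 0.44), and 5 higher in kidney.

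Markers of neighbouring tissues were mostly low. No gene of 8 pancreas acinar markers, 1 of 8 skeletal muscle markers and 1 of 11 adrenal markers passed the count filter, and neither of those 2 was called. Of 9 lymphocyte genes 7 were not called, Cd4 was over 2-fold higher in liver and Jchain, of antibody-secreting cells, over 2-fold higher in kidney. DESeq2 gave neither 2-fold call, and total count scaling did not give that of Cd4. Cd8a, among those not called, was called higher in kidney by limma-voom (-4.02), with all 20 libraries in the fit and with total count scaling. That call was also made without liver replicate 1 and in the 7c mice (-2.96). Of 5 adipocyte genes tested 3 were higher in kidney, Lpl over 2-fold, Fabp4 (-1.40 ± 0.28) and Adipoq (-3.48 ± 1.29, adjusted p = 0.0402, a call lost without liver replicate 1, 2 or 3 or kidney replicate 1, 3 or 4), and Car3 (8.18 ± 0.34), which hepatocytes also make, was over 2-fold higher in liver. Adipoq, which encodes the fat cell hormone adiponectin, counted 1.09, 0.0910, 1.03 and 2.03 CPM in kidney and 0, 0, 0 and 0.360 CPM in liver. Cidec, the remaining gene, was not called in the main fit. DESeq2 (1.31), limma-voom (1.57) and the fit of all 20 libraries (1.38) called Cidec higher in liver. So did the fits without liver replicate 2 or without kidney replicate 4. Without kidney replicate 2, the lowest kidney for Adipoq, the same 5 genes gave 3 higher in kidney, 2 of them over 2-fold. With the count filter at 3 of the 7 libraries left, 8 were tested, 6 were higher in kidney and 5 over 2-fold, and in the 7c mice 7 of 9 were over 2-fold higher in kidney. Alas2, the heme synthesis enzyme of red cell precursors, was higher in liver (5.57 ± 0.35), while the globin genes Hba-a1, Hbb-bs and Hbb-bt were not called. With total count scaling all 3 were called higher in kidney (-1.26, -1.17 and -1.24), Hbb-bs and Hbb-bt also without kidney replicate 4, and Hbb-bt by DESeq2. Hba-a2, a near-identical copy of Hba-a1 with which it may share reads, was over 2-fold higher in kidney, at 7.61, 4.75, 5.32 and 10.3 CPM in liver and 13.5, 57.2, 19.1 and 13.2 CPM in kidney (log2 difference -1.88 ± 0.48). Without kidney replicate 2, the highest kidney, it was -1.22 and not past the 2-fold test, which limma-voom and DESeq2 did not give either.

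Spread among mice was gene-specific. Over 7164 genes above 10 CPM in both organs the median SD of log2 CPM was 0.179 in liver and 0.236 in kidney, and 4419 had the wider spread in kidney, with kidney replicate 2 among these libraries. Serpina1e, an alpha-1-antitrypsin gene of a family of near-identical copies whose reads may be split uncertainly, counted 13901, 5823, 4147 and 38.2 CPM in liver. Hamp2, a hepcidin gene, counted 318, 330, 3.64 and 3.64 CPM in liver, 2 mice high and 2 low, against 0 to 0.159 CPM in kidney, and its difference passed the main test (adjusted p = 0.000533) and not limma-voom (adjusted p = 0.334). In kidney, Azgp1, a secreted lipid-mobilizing protein, counted 0.715, 119, 0.215 and 0.226 CPM, against 1489 to 1791 CPM in liver. Its log2 difference was 5.73 ± 1.77, and 11.87 without kidney replicate 2. Alox15, a lipoxygenase, counted 0.294, 14.7, 0.129 and 52.0 CPM in kidney, and its call (log2 difference -4.60, adjusted p = 0.023) was lost without kidney replicate 4, without liver replicate 1, 2 or 3 and with all 20 libraries in the fit, and was not made by limma-voom (-1.75, adjusted p = 0.585) or in the 7c mice (-2.01, adjusted p = 0.209).

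The same comparison in the 6 livers and 6 kidneys of 7c mice used other samples. Of the 2077 genes over 2-fold higher in vehicle liver, 2011 were tested there, all 2011 had the same sign and 1933 were again over 2-fold, 93.1% of the 2077. Of the 2858 of vehicle kidney, 2753 were tested, 2747 had the same sign and 2561 were again over 2-fold, 89.6%. The 7c libraries called 2278 and 3196 genes over 2-fold in all.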

How the data were processed

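Total RNA of flash-frozen tissue was made into stranded mRNA libraries. The deposited values are raw counts per gene: per the labels and methods, the authors mapped reads to GRCm39 with STAR 2.7.11b and counted them with featureCounts 2.0.6. The annotation release, strand setting and handling of reads with several positions are not given in the sources used here. Groups came from the labels. Per the methods, mice were kept singly after pump implantation, and p-values measure the spread between these libraries.

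Counts were scaled by TMM and fitted in edgeR 4.0.16 (R 4.3.3) with tissue as the only term. glmQLFTest gave the calls and glmTreat against a log2 difference of 1 the 2-fold calls, both adjusted by Benjamini-Hochberg over 17245 genes at 0.05. The methods used edgeR within each tissue, so this contrast is not theirs. Genes at 0 in 1 tissue are given as bounds from 3 counts per library. CPM uses TMM library sizes, TPM the exon lengths of GENCODE. Intervals cover counting and library error only. The fit was also run on simulated data, whose outcome is not given here. Pairing of replicate numbers was checked by the correlation of same-numbered libraries. Symbols and coordinates come from the GENCODE annotation of GRCm39, in which 17183 tested genes have a symbol; C5, Tmlhe and Hprt matched none.

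The members, gene lists and pairs were chosen with earlier results of these data known. Named genes are the 10 with the highest TPM per tissue, the 10 largest 2-fold differences per direction at 100 CPM or more, from each list the first 4, the 4 most abundant past the 2-fold test and up to 3 against its direction, all pair members, the 5 most precise near 0 and the 5 most variable per tissue. Hpx and Serpina1a entered as defining markers, and F13b, Serpinf2, Proc, Hsd3b7, Asl, Tdo2, Rhcg, Ppara, Por, Nr1h4, Gata4, Slc22a7, Atp2b4, Cyp2r1, Cyp27b1, Vdr, Gamt, Bbox1, Atp5f1b, Psmb7, Fabp4 and mt-Atp6 were chosen after their values were seen. Some items of the lists and pairs are not reported here. Alternatives were RLE, upper-quartile and total count scaling, DESeq2 1.42.0, limma-voom 3.58.1, other filters, the replicate block, all 20 libraries, the 7c mice, and each library left out, with the filter at 3 of 7 libraries and, chosen after seeing the data, with the tested genes kept.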

Additional observations from a re-analysis of the deposited data

Results flagged for a closer look

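Values far from the other 3 libraries of their group were looked for in 240 groups of 4 (genes whose levels are given by library, summed gene lists, pair shares and library measures), and 24 were found, of which 9 were in kidney replicate 2. A value counted where its gap to the nearest other library divided by the range of its group was above Dixon's 95% critical value for 4 samples. For independent normal values about 1 in 20 groups would pass. With 3 equal libraries any other value is flagged, as for Aqp2, Ren1, Vdr, Cyp7a1, the pancreas acinar list in liver and the Hnf4a share. Some flags also share genes, such as Lrp2 and the tubule marker sum. That rate therefore does not apply to all groups, and the number found is not compared with it.

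In kidney replicate 2 the summed levels of 4 metabolic and housekeeping lists were above the other kidneys: nuclear oxidative phosphorylation subunits at 20102 CPM (others 12945 to 13825), glycolysis at 18801 CPM (12011 to 12934), amino acid breakdown at 6113 CPM (4660 to 4900) and reference genes at 11804 CPM (8048 to 8375). Ldhb was at 2313 CPM there (others 1180 to 1278) and Azgp1 at 119 CPM (others 0.215 to 0.715). The pancreas acinar list summed to 1.55 CPM in that library (others at most 0.0421), the adrenal list to 2.46 CPM (others 3.72 to 3.81), and Cyp7a1 had 0.0910 CPM where the other kidneys were at 0.

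In liver replicate 3, genes that are abundant in kidney were above the other livers: Lrp2 at 2.03 CPM (others 0.811 to 0.992), Ace at 2.52 CPM (0.700 to 0.792), Ren1 at 0.280 CPM and Aqp2 at 0.140 CPM (others at 0), and the sum of 8 tubule markers at 2.17 CPM (0.992 to 1.18). Slc34a1, Kap and Umod were at 0 in that library. Fgb was lower there, at 4218 CPM against 5609 to 5818 in the other livers.

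Liver replicate 1 had 125470 CPM of summed hepatocyte markers (others 102739 to 103819) and 0.827 CPM of pancreas acinar genes (others 0). Liver replicate 4 had Ldhb at 4.39 CPM (others 3.14 to 3.29), Vdr at 0.504 CPM (others 0), Las1l at 46.2 CPM (others 47.6 to 47.9) and an Hnf4a share of 99.97% (others 100%). Kidney replicate 1 had 2698 CPM of summed ketone body genes (others 2273 to 2339) and 69.0 CPM of liver sinusoidal endothelium genes (others 88.0 to 90.8), and kidney replicate 3 an Hsd11b1 share of 31.5% (lowest 17.8%).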

How the results depend on the processing

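The counts of called genes stayed within 1.5 times the reported ones under every alternative run except total count scaling, which gave 2399 genes higher in liver and 8160 higher in kidney in place of 4439 and 4776. Leaving out 1 library at a time gave 3989 to 4400 genes higher in liver, 4431 to 5274 higher in kidney, 1976 to 2094 over 2-fold in liver and 2728 to 3118 over 2-fold in kidney, but these fits also took 10 counts in 3 of the 7 libraries left as the filter, so 17633 to 18024 genes were tested. With the 17245 genes kept, an alternative chosen after seeing the data, the ranges were 3930 to 4322, 4322 to 5149, 1961 to 2031 and 2653 to 2900, and of the calls of named genes only that of Hk2 without liver replicate 1 differed between the 2 filters. Same-numbered libraries had correlations of their deviations from 0.00971 to 0.119, and 3 of 4 livers and 3 of 4 kidneys correlated best with their own number. With the number as a replicate block, 4183 and 4561 genes were called, and 1999 and 2720 over 2-fold. The block ended the calls of Acadm (adjusted p = 0.0791), Psmd3 (0.0523), Alox15 (0.0635), Cpt2 (0.057) and Psma4 (0.0532), added that of Cidec, and changed no other call of a named gene. Of 312 genes named or sampled by the naming rule, 248 kept their sign and side of the threshold in all alternatives that could be fitted for them. Total count scaling, which shifts every difference towards kidney by construction, reversed 11: Las1l (-0.58), Ufm1 (-0.51), Cpt2 (-0.16), Actb (-0.54), Psma1 (-0.031), Ldha (-0.10), Sdhd (-0.18), Psma4 (-0.21), Ppia (-0.43), Cpt1a (-0.49) and Pcx (-0.42), all log2 liver minus kidney. No other alternative reversed a gene. Depth limits the lowest values: a gene at 0 in 1 library may have up to 3 counts there, 0.112 CPM in liver and 0.0701 CPM in kidney on average.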

Other observations

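By gene type, 16.7% of the 1621 tested long noncoding RNAs were over 2-fold higher in liver and 16.5% in kidney, against 12.0% and 17.4% of the 14176 protein-coding genes and 3.32% and 7.28% of the 783 processed pseudogenes. No difference between types was tested.

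Some of the genes that varied most within a tissue had similar orders in both tissues. Tpm3-rs7, a processed copy of a tropomyosin gene, counted 30.5, 1.62, 0.280 and 50.6 CPM in liver replicates 1 to 4 and 33.5, 1.36, 1.76 and 65.3 CPM in kidney replicates 1 to 4. Rpl26, a ribosomal protein gene, counted 7.73, 243, 114 and 294 CPM in liver and 10.2, 433, 91.8 and 190 CPM in kidney. Serpina1d, an alpha-1-antitrypsin copy, counted 5339, 2942, 2790 and 867 CPM in liver and 131, 113, 62.7 and 0.536 CPM in kidney, and Serpina1e was lowest in replicate 4 of both tissues. These genes have near-identical copies, so the split of their reads is uncertain. With 4 libraries per tissue no correlation is given, and the labels do not say whether replicates of the same number are from 1 mouse. Mup11, a major urinary protein gene, and Ctse, cathepsin E, also varied widely in liver, at 3.39, 111, 1.54 and 162 CPM and at 25.4, 18.6, 0.210 and 37.6 CPM.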
